A study of Mus musculus with 19 samples.

Results

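The Toll-like receptor genes are read here as 10 genes in 19 RNA sequencing libraries of mouse hippocampal CA1 tissue. They were taken by name from the 48709 genes in the count files, and all 10 were found by their Ensembl identifiers. They comprise 4 receptors of the cell surface (Tlr1, Tlr2, Tlr4 and Tlr6), 3 receptors that sense nucleic acids in endosomes (Tlr3, Tlr7 and Tlr9), and 3 proteins that serve them (Cd14, Unc93b1 and Myd88). All 10 passed the filter on low counts, which 19286 genes passed.

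The mice were male C57B/6J wild-type animals, housed singly, and every one of them received lipid nanoparticles carrying oligonucleotides by bilateral injection into the dorsal hippocampus. Young mice of 3 months (young, n = 6) and old mice of 16.5 months (old control, n = 6) received control oligonucleotides with a scrambled sequence, and a further group of 16.5 months (old anti-miR-mix, n = 7) received inhibitors of 3 microRNAs, namely miR-181a-5p and miR-148a-3p as well as miR-146a-5p. In the labels, young and old control libraries carry the mix in their titles too, read here as naming the experiment. By the study's account mice injected in this way were then trained in a water maze. The tissue is read here as CA1, while the paper names dorsal hippocampal tissue for this sequencing. Because no group went without an injection, an effect of the particles or of the needle itself cannot be told apart from the levels in any group, and the treatment comparison sets inhibitors against another oligonucleotide in the same carrier.

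Toll-like receptors recognise molecules of microbes or of damaged cells. Tlr2, as a pair with Tlr1 or Tlr6, binds lipoproteins at the cell surface, and Tlr4 with Cd14 binds lipopolysaccharide. In endosomes Tlr3 binds double-stranded RNA, Tlr7 single-stranded RNA, and Tlr9 DNA that holds unmethylated CG dinucleotides. The endosomal receptors reach their compartment with the help of the chaperone Unc93b1, and all the receptors named except Tlr3 signal through the adaptor Myd88 to the kinases Irak4 and Irak1 and the ligase Traf6. In the brain most of these receptors are made by microglia, and Tlr3 also by astrocytes and neurons.

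The oligonucleotides are shown because the endosomal receptors sense nucleic acids, and whether any of them binds these sequences was not tested. They are written 5′ to 3′ as bases only, with CG dinucleotides in capitals, and their chemical form was not analysed here.
inhibitor of miR-181a-5p: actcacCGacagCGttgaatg
inhibitor of miR-146a-5p: acccatggaattcagttctc
inhibitor of miR-148a-3p: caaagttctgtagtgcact
negative control for inhibitor: taacaCGtctataCGccca
The inhibitor of miR-181a-5p and the control each held 2 CG dinucleotides in their 21 and 19 bases, and the inhibitors of miR-146a-5p (20 bases) and miR-148a-3p (19 bases) held 0. The study's methods name this control for the inhibitor experiment, while the series design text speaks of a control siRNA.

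The targeted microRNAs are shown with the seed, positions 2 to 8, in capitals.
miR-181a-5p: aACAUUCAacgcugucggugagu
miR-146a-5p: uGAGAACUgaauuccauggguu
miR-148a-3p: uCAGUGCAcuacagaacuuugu
Each inhibitor was the exact complement of a stretch of its microRNA, from position 3 to 23 of miR-181a-5p, from 2 to 21 of miR-146a-5p and from 3 to 21 of miR-148a-3p. Sites that match the seeds were looked for in the annotated 3′ UTRs (GENCODE M21, GRCm38), the longest of each gene, on the transcribed strand. The site for miR-146a-5p (AGTTCTC) was present in 0 of the 10 Toll-like receptor genes and in 12.4% of the 15351 tested genes with a 3′ UTR. The site for miR-148a-3p (TGCACTG) was present in 0 of 10 and in 14.9% of all. The site for miR-181a-5p (TGAATGT) was present in 1 of 10, Tlr4, and in 18.1% of all. Tlr4 held it at these places on chromosome 4, with the site in capitals.
Tlr4 chr4:66842189-66842217 (+): catattgtcacTGAATGTcattcttaagt
Tlr4 chr4:66842508-66842536 (+): tgtgagatggaTGAATGTtgggagtacac
Downstream of the receptors, Irak1 held 2 sites for miR-146a-5p and Traf6 held 4, of which the one nearest the stop codon is shown with both of Irak1.
Irak1 chrX:74015383-74015411 (-): tcagaggtcaaAGTTCTCatgcttggaag
Irak1 chrX:74015367-74015395 (-): tcatgcttggaAGTTCTCatagtgtgcaa
Traf6 chr2:101697948-101697976 (+): ctctggtgttgAGTTCTCatttagttgac
A match of these letters is a description of the sequence and not a site shown to be bound.

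Values are given as log2 CPM, the log2 of counts scaled to library size by TMM, with a prior count of 2. Total reads per library ran from 26653511 to 38908947. Single genes had few reads, from 14 to 42 per library for Tlr6 and 15 to 83 for Tlr1, up to 391 to 1170 for Unc93b1. Adjusted p-values are from edgeR's quasi-likelihood test across all 19286 genes with Benjamini-Hochberg adjustment at a threshold of 0.05, and measure the spread between libraries of a group. Counts of genes at an unadjusted p under 0.05 stand without the share of all genes at that threshold, so they are descriptions only. In whole tissue, more cells of a type and more RNA per cell cannot be told apart.

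Features of the libraries touch every result. The authors' log2 table carries a term proportional to a whole number from 1 to 4 in each library, called the processing group here. What the numbers stand for is not stated. Processing group 3 held 3 old anti-miR-mix libraries (replicates 3, 4 and 5), 2 young libraries (replicates 3 and 4) and 0 old controls. Old control replicates 5 and 6 were more alike than any other pair of a group (chi-square per gene 1.88 over 17499 genes, against 4.84 for the next pair), so results were also computed with them summed as 1 library. The labels do not say whether these libraries came from separate mice, and n counts libraries throughout. The dissection was checked by marker lists, of which the 6 general neuronal genes summed to 5530 to 6150 CPM and the 5 of CA1 pyramidal cells to 687 to 985 CPM. The 6 markers of dentate granule and CA3 cells, neighbouring fields, summed to 71.4 to 135 CPM.

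Levels between the genes were compared per length, as RPKM, counts scaled to exon length and to the TMM library size. Over the 19 libraries the chaperone Unc93b1 had the highest level (7.14 ± 1.69 RPKM, SD), followed by Tlr3 (3.81 ± 0.495), and the order Unc93b1, Tlr3, Myd88 held in 19 of 19 libraries at each step. Myd88 (2.13 ± 0.31 RPKM) and Cd14 (1.96 ± 0.679) did not differ beyond their spread, with Myd88 above in 11 of 19 libraries. Tlr2 (1.71 ± 0.826 RPKM) was above Tlr7 (1.37 ± 0.45) in 15 of 19. Tlr9 followed at 0.865 ± 0.2 RPKM, below Tlr7 in 19 of 19 libraries. Tlr4 (0.422 ± 0.112 RPKM) and Tlr1 (0.392 ± 0.173) had overlapping levels, with Tlr4 above in 10 of 19. Tlr6 was lowest at 0.254 ± 0.0745 RPKM and below Tlr1 in 17 of 19. The endosomal sensors as a class thus lay above Tlr4, Tlr1 and Tlr6 in level per length, while Tlr2 lay among them.

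The comparison of the old groups asks which receptor genes differ in old CA1 after injection of the inhibitors. Tlr1, Tlr7 and Unc93b1 were higher in old anti-miR-mix mice than in old controls, by 1.72-, 1.67- and 1.38-fold. These are a surface receptor for lipoproteins, an endosomal sensor of single-stranded RNA, and the chaperone of the endosomal receptors. None of these calls was made when processing group was a factor, when old control replicates 5 and 6 were 1 library, or without the libraries of processing group 3. No receptor gene passed the test in the lower direction, and Tlr3 was nearly level between the groups. Of the 10 genes 3 passed and all 3 were higher, where 0.669% of all genes tested were called higher. The median log2 fold change of the 10 was 0.52, and 9 of 10 were above 0, beside a median of 0.0 and 50.2% above 0 over all genes tested.

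**Figure D1:**
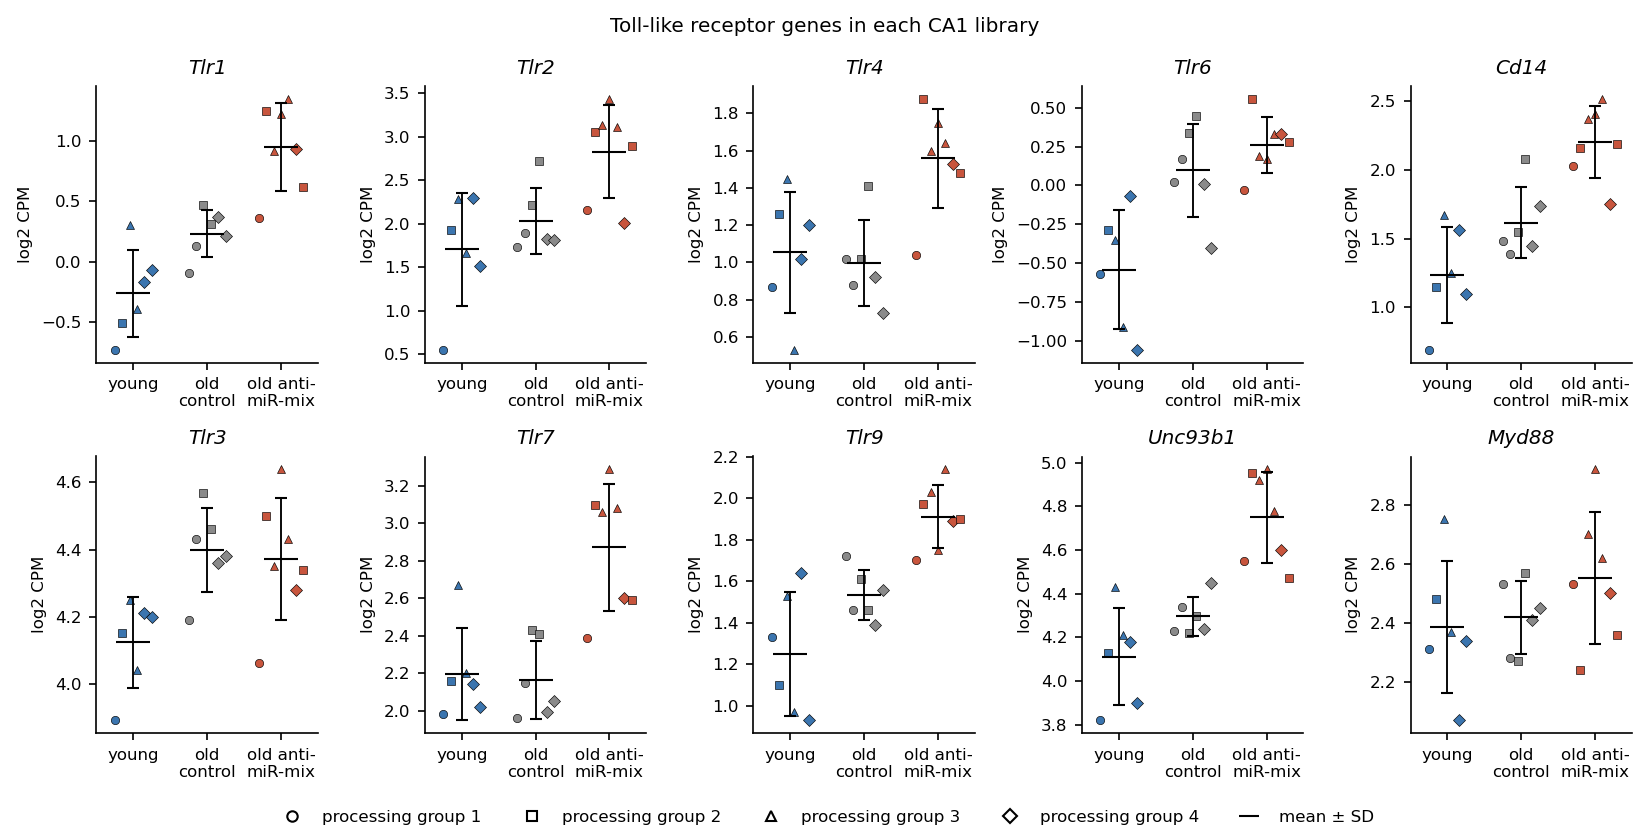
Log2 CPM of each Toll-like receptor gene (one panel each, vertical axis) in the 19 libraries, set out by group. Each point is 1 library, its shape gives the processing group, and bars give mean ± SD. Unc93b1 in the old anti-miR-mix libraries (4.47 to 4.97) lay above the old controls (4.22 to 4.45), while in Tlr3 the old groups overlapped.

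Tlr1 (chr5:64924679-64933563, minus strand of GRCm38) had log2 CPM from -0.09 to 0.47 in the old controls (median 0.26) and from 0.36 to 1.35 in the old anti-miR-mix libraries (median 0.93). Of the 7 treated libraries 6 lay above every old control, and replicate 1 lay within their range. The fitted log2 difference was 0.78 (SE 0.17, edgeR adjusted p = 0.0381). Tlr1 and Tlr6 are neighbouring paralogs on chromosome 5 and may share reads. Their difference in log2 CPM (Tlr1 minus Tlr6) was 0.13 ± 0.3 (SD, n = 6) in the old controls and 0.69 ± 0.28 (n = 7) in the treated libraries, of which 5 lay above every old control.

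Tlr7, the sensor of single-stranded RNA (chrX:167304929-167330558, minus strand), ranged from 1.96 to 2.43 log2 CPM in the old controls (median 2.1) and from 2.39 to 3.29 in the treated libraries (median 3.06). Again 6 of 7 treated libraries lay above every old control and replicate 1 (2.39) lay just within. The fitted log2 difference was 0.74 (SE 0.14, edgeR adjusted p = 0.0217). The 4 highest treated libraries were replicates 2, 3, 4 and 5, of which the last 3 belong to processing group 3.

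Unc93b1 (chr19:3935186-3949340, plus strand) ranged from 4.22 to 4.45 log2 CPM in the old controls (median 4.27) and from 4.47 to 4.97 in the treated libraries (median 4.78). All 7 treated libraries lay above all 6 old controls. Groups separated in this direction for 1 of the 10 genes and for 0.425% of all genes tested. The fitted log2 difference was 0.46 (SE 0.09, edgeR adjusted p = 0.0239).

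The remaining endosomal sensors gave different values. Tlr9, which senses DNA with CG dinucleotides (chr9:106222598-106226883, plus strand), had a median of 1.51 log2 CPM in the old controls (1.39 to 1.72) and of 1.9 in the treated libraries (1.7 to 2.14). Of the 7 treated libraries 6 lay above every old control, but the log2 fold change of 0.39 (SE 0.11) did not pass (edgeR adjusted p = 0.149). Tlr3, which senses double-stranded RNA (chr8:45395665-45411080, minus strand), ranged from 4.19 to 4.57 log2 CPM in the old controls (median 4.41) and from 4.06 to 4.64 in the treated libraries (median 4.35). The ranges overlapped almost whole and the fitted log2 difference was -0.02 (SE 0.08, edgeR adjusted p = 0.956). Tlr3 overlaps an antisense transcript, Gm45542, which had at most 1 read in any library.

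The other surface receptors and Cd14 had positive differences that did not pass. Tlr2 had a median of 1.86 log2 CPM in the old controls (1.73 to 2.72) and 3.05 in the treated libraries (2.01 to 3.44), with a log2 fold change of 0.84 that was the largest of the 10 and also the least precise (SE 0.25, edgeR adjusted p = 0.155). Tlr4 ranged from 0.73 to 1.41 log2 CPM in the old controls and from 1.04 to 1.88 in the treated libraries (log2 fold change 0.58, SE 0.15, edgeR adjusted p = 0.0799). Cd14, which hands lipopolysaccharide to Tlr4, ranged from 1.39 to 2.08 and from 1.75 to 2.52 log2 CPM (log2 fold change 0.6, SE 0.15, edgeR adjusted p = 0.0746). In each of these genes the highest old control was replicate 4, and 1 or 2 treated libraries lay below it, among replicates 1 and 6. For Tlr4 and Cd14 every treated library lay above all old controls except replicate 4. Tlr6, the other partner of Tlr2, was at 0.1 ± 0.3 (SD, n = 6) and 0.26 ± 0.18 (n = 7) log2 CPM (edgeR adjusted p = 0.81).

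Myd88, the shared adaptor (chr9:119335934-119341411, minus strand), ranged from 2.27 to 2.57 log2 CPM in the old controls and from 2.24 to 2.92 in the treated libraries. The fitted log2 difference was 0.15 (SE 0.11, edgeR adjusted p = 0.686), and the treated group held both the lowest and the highest of the 13 old libraries. Myd88 shares 290 exon bases with Acaa1a on the opposite strand, which had 1203 to 2223 reads per library. The strand setting and the handling of reads over 2 genes are not given in the sources used here. The Myd88 count of 126 to 250 reads may therefore hold reads of Acaa1a or lack reads from the shared bases.

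**Figure D2:**
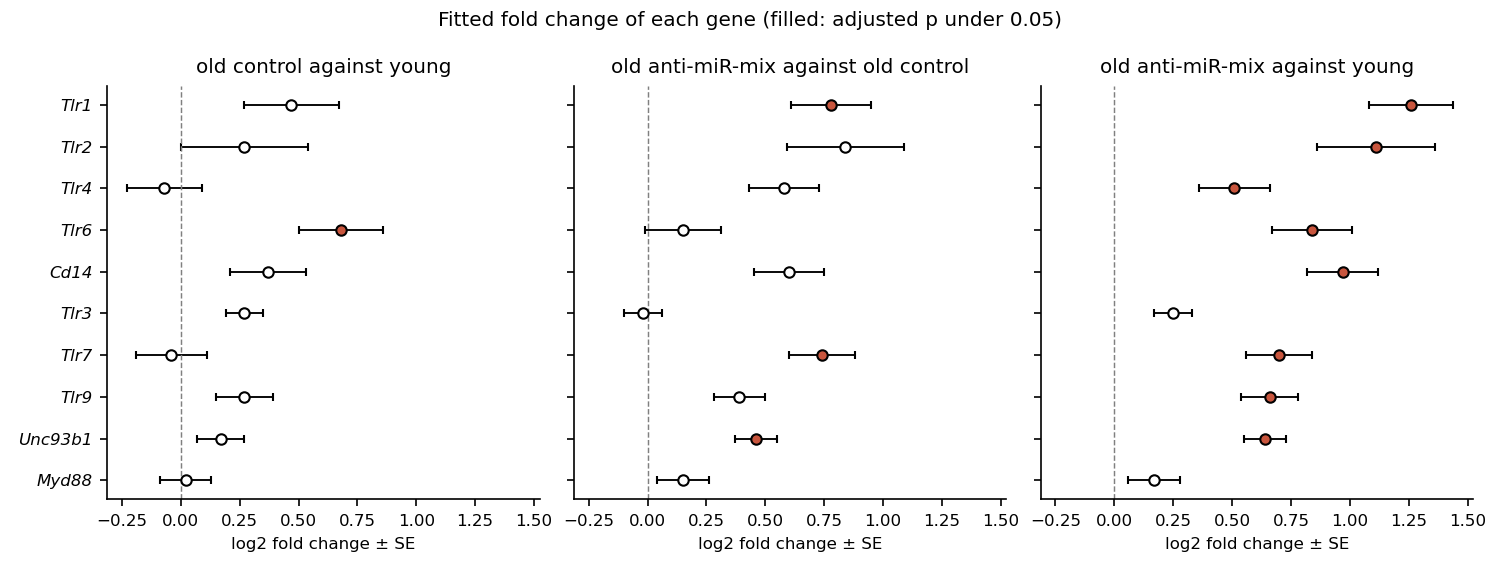
Fitted log2 fold change ± SE (horizontal axis) of the 10 genes in the 3 comparisons, with filled points where the adjusted p was under 0.05. Treatment (centre) gave 3 filled points, Tlr1, Tlr7 and Unc93b1, with Tlr3 at -0.02, and the comparison with young (right) gave 8.

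The treatment calls rested on libraries that the processing groups divide unevenly. With processing group as a factor 0 of the 10 genes passed the adjusted p, where 0.0467% of all genes tested were called higher. In edgeR the adjusted p was 0.116 for Tlr7, 0.203 for Unc93b1 and 0.285 for Tlr1, with log2 fold changes of 0.5, 0.33 and 0.57. At an unadjusted p under 0.05 were 7 of the 10, a count without a share of all genes beside it. With old control replicates 5 and 6 as 1 library 0 of 10 passed the adjusted p as well, where 0.171% of all genes were called higher. For the same genes in order, the edgeR adjusted p was 0.0557, 0.0554 and 0.0803, with log2 fold changes of 0.72, 0.48 and 0.79. Again 7 of the 10 were at an unadjusted p under 0.05. Within the processing groups that held both kinds of old library, 1, 2 and 4, Tlr7 was higher in the treated libraries by 0.34, 0.43 and 0.58 in log2 CPM. For Tlr1 these differences were 0.34, 0.54 and 0.64, and for Unc93b1 0.27, 0.45 and 0.25. For Tlr3 they were -0.25, -0.1 and -0.09. Each of these rests on 1 or 2 libraries a side, and the part that processing group 3 takes in the pooled values was not tested.

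**Figure D3:**
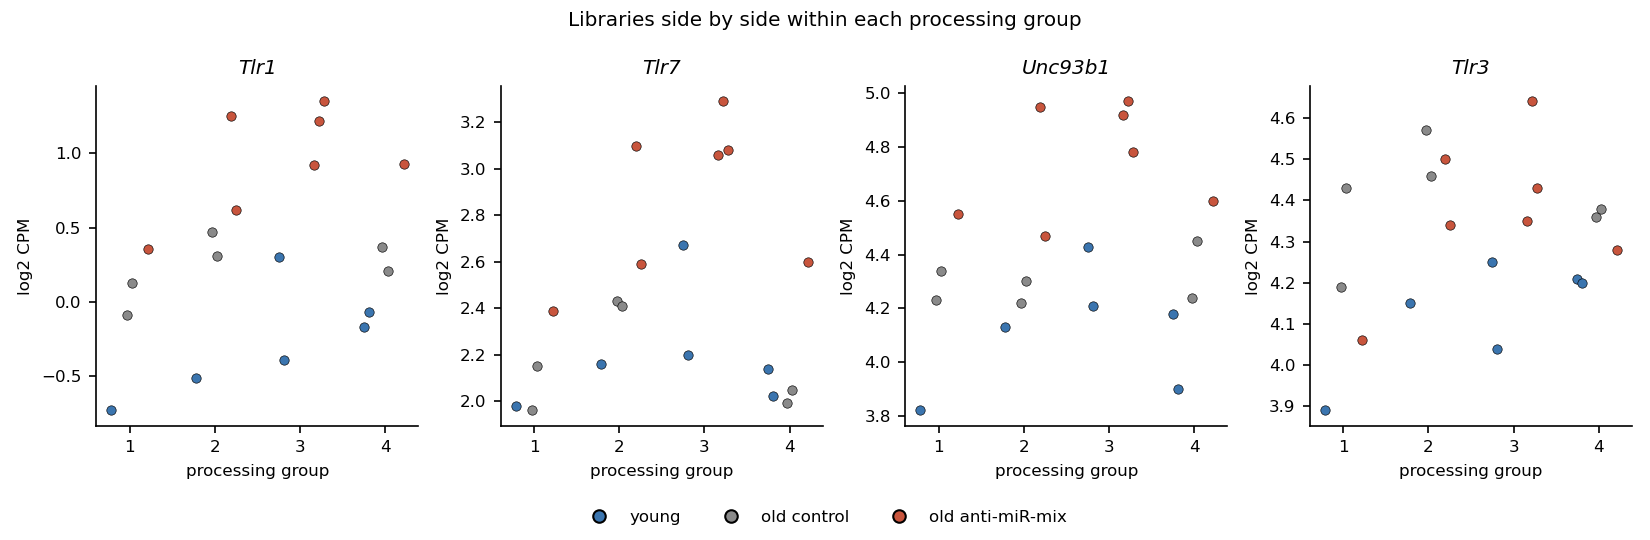
Log2 CPM (vertical axis) of Tlr1, Tlr7, Unc93b1 and Tlr3 in each library, set out by processing group (horizontal axis) and coloured by group. Processing group 3 holds no old control, and its 3 treated libraries are among the highest for Tlr7 (3.06 to 3.29).

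Leaving out 1 library at a time left between 0 and 4 of the 10 genes called. The count was 0 without old control replicate 1, 2 or 5 and without old anti-miR-mix replicate 2, 3, 4 or 5, and 1 (Unc93b1) without old control replicate 6. It was 4 without old control replicate 4 and without old anti-miR-mix replicate 1 or 6. The calls over all genes tested moved alike, from 129 in all libraries to between 24 and 42 in the 7 fits with 0 of the 10 and to 39 without old control replicate 6, against 131 to 247 in the fits with 4. Without the libraries of processing group 3, 0 of 10 and 0 of all 19286 genes were called in edgeR, with 6 of the 10 at an unadjusted p under 0.05. In the fits that left out 1 library, the log2 fold changes stayed between 0.66 and 0.81 for Tlr7 and 0.71 and 0.87 for Tlr1. For Unc93b1 they stayed between 0.42 and 0.51. Over all 25 alternatives, those with processing groups among them, the lowest were 0.49 for Tlr7, 0.44 for Tlr1 and 0.33 for Unc93b1.

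The comparison of old control with young mice asks what differs with age under the same kind of oligonucleotide. Tlr6, the surface receptor that pairs with Tlr2, was 1.6-fold higher in old controls, and no other gene of the 10 passed. It ranged from -1.06 to -0.07 log2 CPM in the young libraries (median -0.46) and from -0.4 to 0.45 in the old controls (median 0.1). Of the 6 old controls 5 lay above every young library. The fitted log2 difference was 0.68 (SE 0.18, edgeR adjusted p = 0.046) and rested on 14 to 28 reads per library in the young mice and 21 to 42 in the old controls. In all, 1 of 10 genes was called higher, where 1.32% of all genes tested were, and groups separated upward for 0 of 10 genes, beside 1.25% of all. With processing group as a factor Tlr6 did not pass (log2 fold change 0.63, edgeR adjusted p = 0.0859) and Tlr3 did (0.33, adjusted p = 0.02), where 1.28% of all genes were called higher. When each library was left out in turn, Tlr6 passed in 3 of 12 fits, those without young replicate 2 or 5 or old control replicate 6. Its log2 fold change then ran from 0.58 to 0.8, and its adjusted p over all alternatives from 0.0289 to 0.235.

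The endosomal sensors did not pass with age. Tlr3 was at 4.12 ± 0.14 (SD, n = 6) log2 CPM in young and 4.4 ± 0.13 (n = 6) in old control libraries (log2 fold change 0.27, SE 0.08, edgeR adjusted p = 0.0753), and 5 of 6 old controls lay above every young library. Tlr7 was at 2.19 ± 0.25 and 2.16 ± 0.21 log2 CPM (log2 fold change -0.04, SE 0.15, edgeR adjusted p = 0.918). Tlr9 was at 1.25 ± 0.3 and 1.53 ± 0.12 (log2 fold change 0.27, SE 0.12, edgeR adjusted p = 0.234). Over the 10 genes the median log2 fold change was 0.27 with 8 of 10 above 0, beside a median of 0.01 and 52.2% above 0 over all genes tested.

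Old anti-miR-mix mice differed from young mice in age and in inhibitor at once. All genes except Tlr3 and Myd88 were higher in the treated old mice, 8 of 10, where 4.57% of all genes tested were called higher. The largest differences were those of the surface receptors Tlr1 (2.39-fold, log2 fold change 1.26, SE 0.18, edgeR adjusted p = 0.000153) and Tlr2 (2.15-fold, 1.11, SE 0.25, adjusted p = 0.00901). Cd14 was 1.95-fold and Tlr6 1.78-fold higher. Tlr7, Tlr9 and Unc93b1 were higher by 1.62-, 1.58- and 1.55-fold, and Tlr4 by 1.42-fold. The median log2 fold change of the 10 was 0.68. For Tlr1, Tlr6, Tlr9, Cd14 and Unc93b1, 5 of 10 genes, all 7 treated libraries lay above all 6 young ones, which held upward for 1.79% of all genes tested. Tlr3, at a log2 fold change of 0.25 (SE 0.08), had an edgeR adjusted p = 0.0633, and Myd88, at 0.17 (SE 0.11), an adjusted p = 0.413. With processing group as a factor 8 of 10 passed (4.5% of all genes called higher), with Tlr3 in place of Tlr4 (adjusted p = 0.0431 and 0.0608 in edgeR). Without the 5 libraries of processing group 3, 5 of 10 passed (1.51% of all genes called higher), namely Tlr1, Tlr7, Tlr9, Cd14 and Unc93b1.

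Within processing group 3, where 3 treated and 2 young libraries can be set side by side, Tlr7 was at 3.14 and 2.43 log2 CPM on average, Tlr1 at 1.16 and -0.04, Unc93b1 at 4.89 and 4.32, and Tlr3 at 4.47 and 4.15. The young libraries of this group were not low throughout, since young replicate 3 had the highest Tlr7 of the young mice (2.67 log2 CPM, against 1.98 to 2.2 in the rest). The treated libraries of processing group 3 lay above both of its young libraries in each of these 4 genes.

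Since oligonucleotides were injected and the endosomal class senses nucleic acids, that class was set against the surface class in each library. The oligonucleotides are listed as single sequences, while the series design text speaks of a control siRNA. Whether any receptor bound the oligonucleotides was not tested. The measure was the mean log2 CPM of Tlr3, Tlr7 and Tlr9 minus that of Tlr1, Tlr2, Tlr4 and Tlr6, given as a description. It ranged from 1.87 to 2.37 in young libraries (mean 2.03 ± 0.2, SD), from 1.56 to 2.07 in old controls (1.86 ± 0.18) and from 1.51 to 1.83 in treated libraries (1.65 ± 0.11). The difference between the old groups was -0.21, with 6 of 7 treated libraries within the range of the old controls and 1 below it. The difference between treated and young libraries was -0.38 and the ranges did not overlap, while in the deposited log2 values the difference was -0.16. Both classes were higher in the treated than in the old control libraries, the endosomal by 0.35 and the surface by 0.56 in mean log2 CPM.

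**Figure D4:**
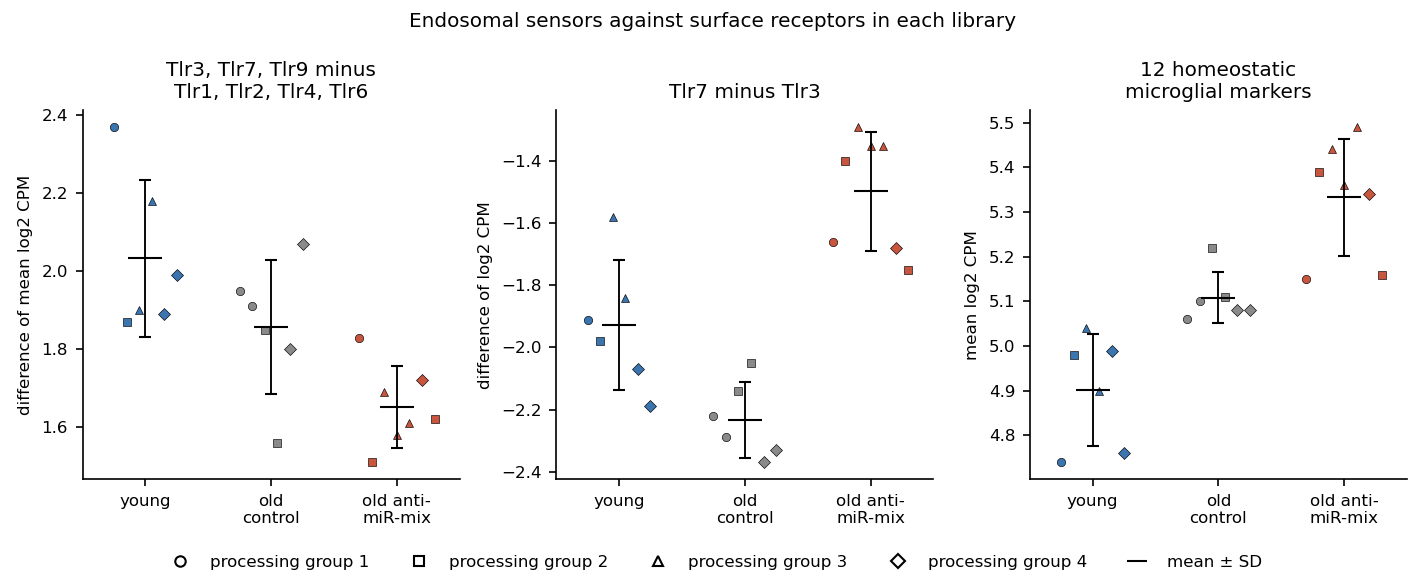
Left, the mean log2 CPM of Tlr3, Tlr7 and Tlr9 minus that of Tlr1, Tlr2, Tlr4 and Tlr6 in each library. Centre, log2 CPM of Tlr7 minus Tlr3. Right, the mean log2 CPM of 12 homeostatic microglial markers. Points are libraries, shapes give the processing group and bars mean ± SD; Tlr7 minus Tlr3 was above every old control in all 7 treated libraries (-1.75 to -1.29, against -2.37 to -2.05).

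The class was not uniform. The difference of Tlr7 and Tlr3 in log2 CPM, a pair chosen after their values were seen, was -2.23 ± 0.12 (SD, n = 6) in old controls, -1.5 ± 0.19 (n = 7) in treated and -1.93 ± 0.21 (n = 6) in young libraries. All 7 treated libraries lay above all 6 old controls on this measure, while 4 of 7 lay above all young ones. Tlr7 minus Tlr9, both carried by Unc93b1, was 0.63 ± 0.25 (SD, n = 6) in old controls, 0.96 ± 0.31 (n = 7) in treated and 0.95 ± 0.29 (n = 6) in young libraries, and 3 of 7 treated libraries lay above every old control.

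Markers of microglia were also higher in the treated libraries. The mean log2 CPM of 12 homeostatic microglial markers (among them P2ry12, Tmem119 and Cx3cr1) was 4.9 ± 0.13 (SD, n = 6) in young, 5.11 ± 0.06 (n = 6) in old control and 5.33 ± 0.13 (n = 7) in treated libraries, and their summed level ran from 407 to 495, 494 to 558 and 540 to 699 CPM. None of the 12 was near 0 in any group. Of these markers 3 were called higher in treated than in old control mice and 3 in old control than in young mice, with a median log2 fold change of 0.19 in both. In treated against young mice 11 of 12 were called higher. Of all genes tested 0.669%, 1.32% and 4.57% were called higher in these comparisons. A list of 8 pan-myeloid genes (among them Itgam, Ptprc and C1qa) had 6 called higher in treated than in old control mice, with a median of 0.59, and its summed level ran from 233 to 292 CPM in old controls and from 290 to 452 in treated libraries. These calls are from the fit without processing group, and values of the markers in other fits are not given here. Over all genes the treatment calls fell from 129 to 9 with processing group as a factor and to 0 without processing group 3.

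Relative to the mean of the homeostatic markers in the same library, Tlr1 was 0.49 higher in treated than in old control mice in log2 CPM, Tlr7 0.48, Tlr2 0.57, Cd14 0.36, Tlr4 0.34, Unc93b1 0.22 and Tlr9 0.15. Tlr3 was 0.26 lower on this scale and lay below every old control in 5 of 7 treated libraries (difference -0.26). Myd88 and Tlr6 gave -0.09 and -0.07. The mean of all 10 genes was 0.22 higher relative to the homeostatic list and -0.1 relative to the pan-myeloid list, so its direction depended on which list it was set against. The part of microglial number or state in the receptor values was not tested.

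Other cell types were checked with marker lists. The summed level of 7 monocyte and neutrophil markers ran from 0.473 to 4.42 CPM in old controls and from 2.6 to 10.5 in treated libraries, with 0 of 5 tested genes called between these groups and a median log2 fold change of 1.59; Ly6g and Ngp were at or near 0 throughout. Of 8 markers of border-associated macrophages 0 were called with treatment, and their sum ran from 23.1 to 29.3 and from 23.8 to 37.2 CPM. Astrocyte markers, a further source of Tlr3, had 0 of 6 called with treatment and sums of 1810 to 2130 and 1800 to 2470 CPM. In treated against young mice 3 of 5 tested monocyte and neutrophil markers were called higher, with a median log2 fold change of 2.03. So were 3 of 6 astrocyte and 1 of 8 border-associated macrophage markers, with medians of 0.2 and -0.1, where 4.57% of all genes tested were called higher. The part of these cells in the receptor values was not tested.

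The other Toll-like receptors showed how far the pattern went in the family. Tlr13, an endosomal sensor of bacterial ribosomal RNA in mice, was at 1.59 ± 0.21 (SD, n = 6) log2 CPM in young, 2.08 ± 0.26 (n = 6) in old control and 2.63 ± 0.27 (n = 7) in treated libraries. It was called higher in treated than in young mice (log2 fold change 1.07, SE 0.13, edgeR adjusted p = 5.04e-05) and lay just outside the threshold with treatment (0.56, SE 0.13, adjusted p = 0.0516) and with age (0.51, adjusted p = 0.0556). Tlr12, a receptor for a protein of protozoa, had a log2 fold change of 0.15 with treatment (edgeR adjusted p = 0.835). Tlr5, the receptor for flagellin, had 7 to 23 reads per library and a log2 fold change of 0.02, and Tlr8 had 2 to 17 reads and 0.82 (edgeR adjusted p = 0.4). Tlr11 had 0 to 7 reads and was not tested. Of the 4 tested receptors outside the 10, 0 were called with treatment in edgeR (2 at an unadjusted p under 0.05, and 1 called by DESeq2) and 1 in treated against young mice.

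Pathway genes were taken as 7 lists of 79 genes, of which 74 were tested. With treatment 4 were called higher and 0 lower, with a median log2 fold change of 0.17, where 0.669% of all genes tested were called higher. DESeq2 called 8, and over all genes it called 267 of 18153, against 129 of 19286 in edgeR. With processing group as a factor 0 of the 74 passed, with 16 at an unadjusted p under 0.05, against 33 without the factor. In treated against young mice 19 were higher and 2 lower, where 4.57% of all genes tested were called higher and 1.63% lower. With age 0 were higher and 4 lower, beside 1.34% of all genes called lower.

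**Figure D5:**
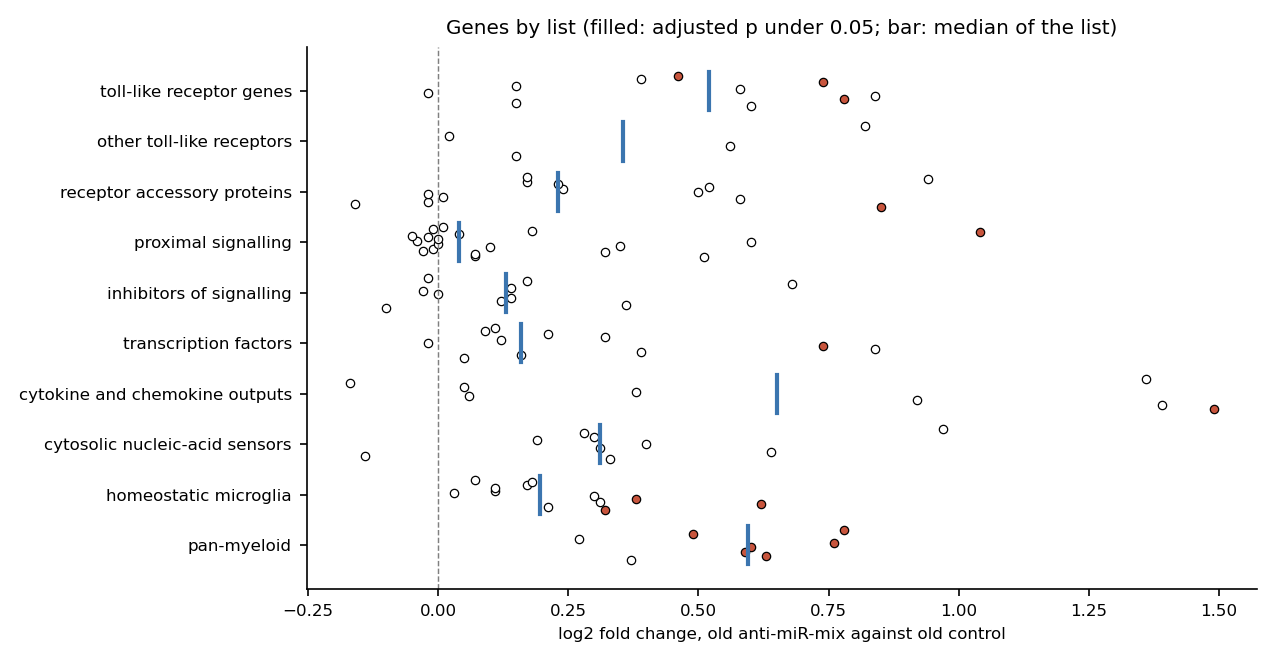
Log2 fold change of old anti-miR-mix against old control (horizontal axis) for each tested gene of the Toll-like receptor set, of 7 pathway lists and of 2 microglial lists. Each point is a gene, filled where the adjusted p was under 0.05, and the bar is the median of the list; the set of 10 had a median of 0.52, proximal signalling 0.04 and the pan-myeloid genes 0.59.

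Of 13 accessory proteins of the receptors 1 was called with treatment, Cd180, a surface relative of the receptors that pairs with Ly86 (log2 fold change 0.85, SE 0.18, edgeR adjusted p = 0.032). In treated against young mice 6 of 13 were higher, among them Slc15a3, an endosomal transporter (1.45), Cd180 (1.36), Ctss, a lysosomal protease that can cut endosomal receptors (0.92), Ly86 (0.84), Nrros (0.37) and Ly96, the lipopolysaccharide-binding partner of Tlr4 (0.65, SE 0.19, edgeR adjusted p = 0.0417).

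Of 19 proximal signalling genes 1 was called with treatment, Ticam2, the adaptor that joins Tlr4 to Ticam1 (8 to 15 reads in old controls and 19 to 37 in treated libraries, log2 fold change 1.04, SE 0.19, edgeR adjusted p = 0.0159). Sites for miR-146a-5p were present in 8 of the 74 pathway genes with a 3′ UTR. Irak1 and Traf6, whose sites are printed above, had log2 fold changes of -0.01 (SE 0.03, edgeR adjusted p = 0.961) and 0.01 (SE 0.05, adjusted p = 0.951). Irak2 and Tirap, with 2 such sites each, had 0.1 (edgeR adjusted p = 0.65) and 0.18 (adjusted p = 0.65). The others, named here for their sites, were Rel with 4 sites (log2 fold change 0.21, SE 0.09, edgeR adjusted p = 0.392), and Otud7b, Chuk and Tollip with 1 site each (0.14, 0.07 and -0.02, adjusted p = 0.339, 0.608 and 0.877). Ticam1, the adaptor used by Tlr3, had 0.04. The median of the list was 0.04. Of the 74 pathway genes, 16 held the site of miR-148a-3p, and 15 held that of miR-181a-5p. Ticam2 held 1 of each and 0 for miR-146a-5p. Cd180, Irf8 and Ccl3, the remaining pathway genes called with treatment, held 0 sites for each of the 3 microRNAs. Whether any of these sites was bound was not tested. In treated against young mice Ticam2, Btk, Pik3ap1, Tirap and Irak4 were higher (log2 fold changes of 1.0, 0.93, 0.72, 0.46 and 0.45) and Traf3 was lower (-0.14, edgeR adjusted p = 0.0122). With age Chuk, Ikbkb and Traf3 were lower by small amounts (log2 fold changes of -0.19, -0.16 and -0.14, adjusted p = 0.0338, 0.0384 and 0.0393 in edgeR). None of them passed with processing group as a factor (adjusted p = 0.0798, 0.0825 and 0.0905 in edgeR), without a filter on low counts, or without processing group 3.

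Of 10 inhibitors of signalling 0 were called with treatment in edgeR or in DESeq2 (2 at an unadjusted p under 0.05), and 0 with age in edgeR (3 at an unadjusted p under 0.05, and 1 called by DESeq2). In treated against young mice Socs1 was higher (log2 fold change 0.72, edgeR adjusted p = 0.0421) and Tollip lower (-0.13, adjusted p = 0.0325). Of 11 transcription factors Irf8, a regulator of the microglial lineage, was called with treatment (0.74, SE 0.15, edgeR adjusted p = 0.0248). Irf7, the interferon regulator downstream of Tlr7 and Tlr9, was not (0.84, SE 0.35, edgeR adjusted p = 0.385). At an unadjusted p under 0.05 were 7 of the 11, and 3 with processing group as a factor. Irf3, which acts downstream of Tlr3, was lower in old control than in young mice (-0.24, SE 0.06, edgeR adjusted p = 0.0266), and did not pass with processing group as a factor (adjusted p = 0.0571). Irf5 and Irf8 were higher in treated than in young mice (0.61 and 0.97).

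Of 12 cytokine and chemokine genes 8 were tested, and Ccl3, a chemokine of activated microglia, was called with treatment (14 to 45 reads in old controls and 27 to 118 in treated libraries, log2 fold change 1.49, SE 0.34, edgeR adjusted p = 0.0439). Ccl3 and Ccl4 were higher in treated than in young mice (1.98 and 1.94). Il6, Il12b, Ifnb1 and Cxcl2 had at most 14 reads in any library and were not tested. Of 9 cytosolic sensors of nucleic acids 0 were called with treatment in edgeR, with 7 at an unadjusted p under 0.05 and 1 called by DESeq2. Among them Cgas, a sensor of double-stranded DNA, had a log2 fold change of -0.14 (edgeR adjusted p = 0.772), Sting1, its partner, 0.28 (adjusted p = 0.347), and the RNA sensors Rigi and Ifih1 had 0.3 and 0.4 (adjusted p = 0.569 and 0.358). In treated against young mice Aim2 and Sting1 were higher (0.64 and 0.53).

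Between libraries of the same group, 43 of the 45 pairs of the 10 genes had a Pearson r above 0. Across the 19 libraries, after subtraction of group means, the median Pearson r over the 45 pairs was 0.45, from -0.19 to 0.89. This describes libraries that share depth and dissection, values for other gene pairs are not given here, and no test was made. Tlr7 had the highest median r with the other genes (0.67), and Myd88 (0.27) and Tlr9 (0.29) the lowest. Old anti-miR-mix replicates 2, 3, 4 and 5 were among the 4 highest of the 19 libraries for 8, 7, 8 and 9 of the 10 genes, and old anti-miR-mix replicate 1 for 0. Outside the set, the tested genes most like the mean of the 10 after subtraction of group means were Ctsc (r = 0.93), Naip2, Plek and Dock2 (0.91 each) and Gsap (0.9) over the 19 libraries. Of these Plek was called with treatment (log2 fold change 0.5, edgeR adjusted p = 0.0493).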

How the data were processed

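Members, gene lists and tests were chosen with earlier results of these data known. Whole-number read counts per gene were deposited by the authors, who by the labels and methods used TruSeq polyA libraries, single-end reads, STAR 2.5.2b on mm10 and featureCounts (Subread 1.5.1). The annotation release, strand and multimapping settings are not given in the sources used here. A deposited table of the authors holds log2 values, log2(CPM + 1) with a further term per processing group, and served only as an alternative.

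Genes with at least 5 reads in 50% of libraries were kept (19286), scaled by TMM and fitted with edgeR 4.0.16 (R 4.3.3) over all 3 groups in 1 fit; log2 CPM used a prior count of 2. Scripts were tested on simulated data. Symbols, lengths and coordinates came from GENCODE M21 (48349 of 48709 identifiers matched), microRNA sequences from RefSeq, oligonucleotides from the study's supplement. Named genes were the 10 members, listed genes with an adjusted p under 0.05 in any comparison (at most 6 per list and comparison), 16 further pathway genes and the 5 genes most like the members. DESeq2 1.42.0, limma 3.58.1, other filters, scalings and covariates, and omission of each library were alternatives. Groups came from the sample descriptions, and p-values set a group difference against the spread between libraries within groups.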

Additional observations from a re-analysis of the deposited data

Results flagged for a closer look

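Of 33 sets of values examined for a sample far from the rest (10 genes and the endosomal minus surface measure in 3 groups), 1 was marked, where chance marks about 1 in 20. Tlr7 in young replicate 3 was at 2.67 log2 CPM, apart from the next highest young library at 2.2 and the lowest at 1.98, a gap of 0.69 of the range against a critical value of 0.625. This library belongs to processing group 3, and its part in the value was not tested.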

How the results depend on the processing

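Among the 10 genes, treatment called 3 in edgeR and called 5 with DESeq2 (Cd14 and Tlr4 added) and 5 with the replicate block, 0 with processing group as a factor, 0 with old control replicates 5 and 6 as 1 library, 0 with both, and 0 without processing group 3 (chosen after seeing the data; 0 of all genes), and 0 to 4 without single replicates. Over all genes tested, edgeR, DESeq2 and the replicate block called 129, 267 and 249 with treatment and 514, 914 and 651 with age. Among the 10 genes, age called 1, and 0 with no filter, the linear processing group, replicates 5 and 6 as 1, limma or without processing group 3, 2 with DESeq2 or the replicate block (Tlr3 added), and 0 to 1 without single replicates. Treated against young called 8, and 5 without processing group 3, and 7 to 9 without single replicates. Of the pathway genes, treatment called 4, and 10 with the replicate block, 8 with DESeq2, 2 in the fit of 2 groups or with the linear term, 1 with replicates 5 and 6 as 1, 0 with processing group as a factor, with both or without processing group 3, and 0 to 9 without single replicates; age called 4, and 1 with no filter, 7 with the replicate block, 8 with DESeq2, 2 with both, 0 without processing group 3, 4 with processing group as a factor (Chuk, Ikbkb, Traf3 and Irf3 lost, 4 others gained), and 0 to 7 without single replicates; treated against young called 21, and 11 without processing group 3, and 16 to 23 without single replicates. The endosomal minus surface difference of treated and young libraries was -0.38, and -0.16 in the deposited values; without single replicates it ran from -0.41 to -0.31, that of treatment from -0.27 to -0.16 and that of age from -0.22 to -0.11. Against pan-myeloid markers the 10 genes gave -0.1 with treatment (0.22 against homeostatic markers) and -0.17 in treated against young (0.27). Direction turned in values that did not pass: with age, Tlr7 from -0.04 to 0.11 (processing group as a factor), 0.12 (with replicates 5 and 6 as 1 as well), 0.09 (without processing group 3) and 0.07 (without young replicate 3), Tlr4 from -0.07 to 0.02 (without young replicate 3), and Myd88 from 0.02 to -0.03 and -0.01 (without young replicate 5 or old control replicate 4); with treatment, Tlr3 from -0.02 to 0.01 and 0.03 (without old control replicate 3 or treated replicate 1) and Myd88 from 0.15 to -0.02 (without processing group 3). The causes were not tested. Replicate numbers gave no pairing: same-numbered deviations correlated from -0.17 to 0.214, so the block describes shared numbers only. Tlr1 and Tlr6, at 14 to 83 reads, are limited by depth.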
